A study of Mus musculus with 10 samples.

Results

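A set of 6 CC chemokine genes was followed across 3 groups of sorted mouse pancreatic macrophages: Ccl3, Ccl4 and Ccl5, Ccl17 and Ccl22, and Ccl24. They were chosen by name as chemokines that attract lymphocytes or eosinophils, and all 6 were found among the 12535 genes of the expression table. Bulk RNA-seq was available for 10 libraries. The resident group (n = 4) held CD45+CD11b+F4/80+ cells of the healthy pancreas, sorted from C57/BL6 WT (wild-type) mice. The same sort applied to orthotopic pancreatic tumours gave tumour-associated macrophages (TAM), taken on day 14 after implantation of MT4, a KPC tumour organoid line. The control TAM group (n = 3) came from C57/BL6 Ahr fl/fl mice, whose Ahr gene is flanked by loxP sites and encodes the aryl hydrocarbon receptor. The cKO-labelled TAM group (n = 3) came from Ahr fl/fl Lys M mice, a label naming the lysozyme M promoter, which drives Cre in macrophages, monocytes and neutrophils. Both TAM groups share the floxed allele, which the resident group lacks, so that tumour and genotype cannot be told apart in any comparison with the resident group. All tumours came from 1 organoid line.

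CC chemokines are small secreted proteins that bind G protein-coupled receptors and draw leukocytes along a gradient. Ccl3, Ccl4 and Ccl5 are inflammatory chemokines, with Ccr1 among the receptors of Ccl3 and Ccl5, and they attract effector T cells, NK cells and monocytes. Ccl17 and Ccl22 are the ligands of Ccr4, found on type 2 helper and regulatory T cells, and they are known products of dendritic cells and of macrophages exposed to IL-4. Ccl24, also called eotaxin-2, attracts eosinophils through Ccr3.

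The genes lie in 3 places of the mouse genome (GRCm38, GENCODE M21). Ccl5 (ENSMUSG00000035042, chr11:83525778-83530518, minus strand), Ccl3 (ENSMUSG00000000982, chr11:83647844-83649355, minus strand) and Ccl4 (ENSMUSG00000018930, chr11:83662584-83664683, plus strand) are neighbours on chromosome 11, with 13228 bases between Ccl3 and Ccl4 and 117325 bases between Ccl5 and Ccl3. Ccl22 (ENSMUSG00000031779, chr8:94745590-94751699) and Ccl17 (ENSMUSG00000031780, chr8:94810453-94812036) lie on the plus strand of chromosome 8, with 58753 bases between them. Ccl24 (ENSMUSG00000004814, chr5:135569937-135573049, minus strand) lies on chromosome 5. No other annotated gene overlaps any of the 6. The transcripts of Ccl3, Ccl4, Ccl17 and Ccl22 shared no stretch of 31 bases with those of another gene, while Ccl5 shared 11 such stretches with transcripts of 4 genes and Ccl24 shared 1 with transcripts of 1 gene.

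The values are FPKM, read fragments scaled to transcript length and to a depth set for each library, as deposited. Low values fell on whole steps of 1 read, which gave between 10312742 and 26454651 reads per library, and the values of 5 of the 6 genes came out as whole reads within 0.05. Those of Ccl17 lay up to 0.177 reads from a whole number, in proportion to their size, and were rounded. The depth that fitted these steps lay below the recovered total in all 10 libraries. Replicate 1 gave 13931936 against 15676824 reads in the resident group, 12871797 against 13091923 in control TAM and 16622562 against 17078422 in cKO-labelled TAM. The cause was not tested. Ahr itself averaged 7.18 ± 0.309 FPKM (SD, n = 3) in control TAM and 10.4 ± 0.785 (SD, n = 3) in the cKO-labelled libraries. It therefore went against the label, although a gene-level value does not check the deletion of part of a gene. Directions in the text are for the libraries labelled cKO. In the macrophage list (9 genes), all 9 were measured, and the summed FPKM ran from 31200 to 32075 in resident cells, 22646 to 22782 in control and 13920 to 14313 in cKO-labelled libraries. Most of that sum was Lyz2, which encodes lysozyme M and whose promoter the Lys M label names, at 27682 to 28630, 19810 to 19974 and 11238 to 11637 FPKM. The other 8 genes summed to 3445 to 3517, 2808 to 2836 and 2623 to 2682 FPKM. By the mean over all libraries the next most abundant was Cd68, a macrophage lysosomal glycoprotein, at 920, 1014 and 1035 FPKM. Pancreatic acinar genes, which encode digestive enzymes, were also read: the summed FPKM of 9 of them ran from 21886 to 23178 in resident cells, 49.3 to 52.0 in control and 240 to 247 in cKO-labelled libraries. The most abundant of these was Cela2a, a pancreatic elastase, at a mean of 6034 FPKM in resident cells. Their part in the results was not tested, and in bulk samples fewer cells of a type and less RNA per cell cannot be told apart.

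Among the inflammatory chemokines, Ccl4 was measured at 14.2, 15.7, 13.7 and 15.9 FPKM in the 4 resident libraries. Control TAM reached 76.4, 74.4 and 77.4 FPKM, and cKO-labelled TAM 52.3, 58.4 and 49.6. The 3 groups did not overlap, with resident cells lowest and control TAM highest. The means were 14.9 ± 1.09 (SD, n = 4), 76.0 ± 1.54 (SD, n = 3) and 53.4 ± 4.52 (SD, n = 3), so that control TAM held 5.11 times the resident level and cKO-labelled TAM 0.703 times the control level. On the log2(FPKM + 1) scale Ccl4 rose by 2.28 ± 0.0592 (SE) from resident to control TAM (limma, Benjamini-Hochberg adjusted p = 5.02e-15). From control to cKO-labelled TAM it fell by 0.50 ± 0.0633 (limma, adjusted p = 1.68e-05).

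Ccl3, the neighbour of Ccl4 and a ligand of Ccr1, was measured at 14.0, 14.0, 13.1 and 14.8 FPKM in resident libraries. Control TAM held 51.8, 53.5 and 54.7 FPKM and cKO-labelled TAM 44.0, 49.7 and 44.7. The order of the groups was that of Ccl4, again with no overlap, but the distance between the TAM groups was smaller. Mean Ccl3 was 3.83 times higher in control TAM than in resident cells (log2 change 1.86 ± 0.0512, limma adjusted p = 1.07e-14). It was 0.865 times the control level in cKO-labelled TAM, a log2 change of -0.21 ± 0.0547 (limma, adjusted p = 0.00743).

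The ratio of Ccl3 to Ccl4 within a library, taken on FPKM, ran from 0.892 to 0.98 in resident cells, 0.678 to 0.719 in control and 0.841 to 0.902 in cKO-labelled TAM. Ccl4 was thus above Ccl3 in all 10 libraries, and by most in control TAM. In each resident library, and in cKO-labelled replicate 3, the exact 95% Poisson intervals of Ccl3 and Ccl4 overlapped. Resident replicate 1 had 11.8 to 16.4 FPKM for Ccl3 and 11.9 to 16.9 for Ccl4. By reads Ccl3 was the higher in every resident library (149 against 131 in replicate 1), on a transcript of 766 against 660 bases. These ratios are a description with no test.

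Ccl5, a ligand of Ccr1 and Ccr3, was measured at 6.88, 6.49, 6.07 and 6.67 FPKM in resident libraries. Control TAM held 54.7, 57.7 and 56.7 FPKM, and cKO-labelled TAM 68.9, 70.4 and 65.97. Here the cKO-labelled libraries were highest, opposite to Ccl3 and Ccl4, and the groups did not overlap. Mean Ccl5 was 8.63 times the resident level in control TAM (log2 change 2.93 ± 0.0469, limma adjusted p = 1.08e-17). Between the TAM groups it rose by 0.28 ± 0.0502 on the log2 scale (limma, adjusted p = 0.000496), a mean 1.21 times the control level.

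The level of Ccl5 depends on the transcript length used. The deposited values fitted the longest annotated transcript of 668 bases, which retains an intron, and on the coding transcript of 532 bases the means would be 8.20, 70.8 and 85.9 FPKM in resident, control TAM and cKO-labelled TAM. Ratios of FPKM between groups do not change with that length.

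**Figure D1:**
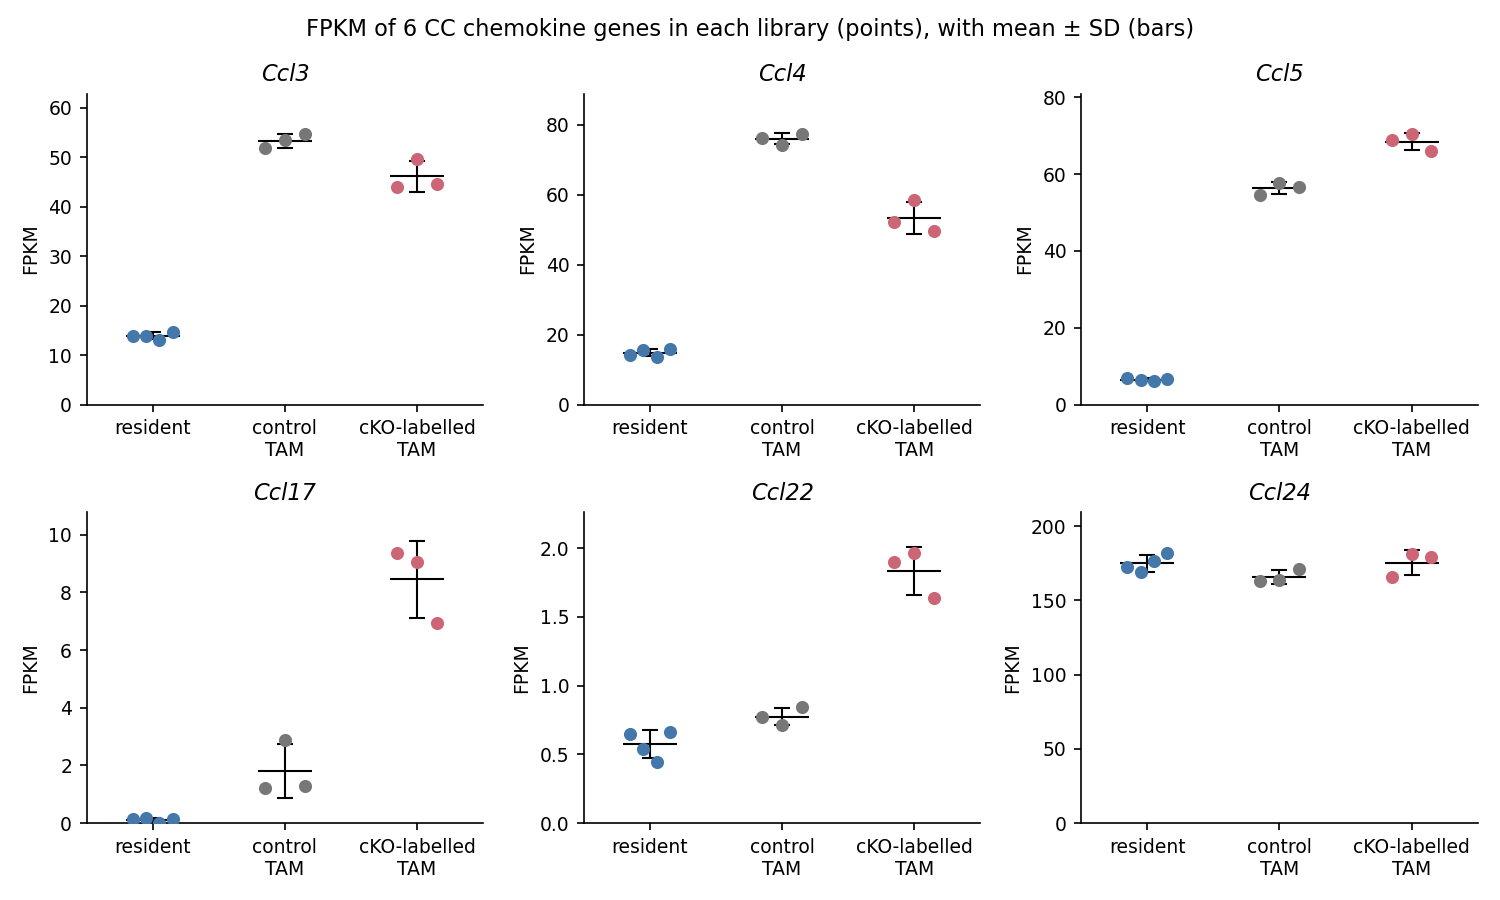
FPKM (vertical axis, linear, one scale per panel) of each of the 6 chemokine genes in every library of the 3 groups; points are libraries, and the line and bar are the mean and SD. Ccl3 and Ccl4 were highest in control TAM, Ccl5, Ccl17 and Ccl22 in cKO-labelled TAM, and the groups overlapped for Ccl24.

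The Ccr4 ligands were low, and their highest levels were in the cKO-labelled libraries. Ccl17 and Ccl22 start transcription from the same strand, and the bases before their starts are shown because they are the members whose levels changed most between the TAM groups. The sequences are RefSeq's on GRCm38.p6, 5′ to 3′, and capitals mark the motif matches given after them.
Ccl17: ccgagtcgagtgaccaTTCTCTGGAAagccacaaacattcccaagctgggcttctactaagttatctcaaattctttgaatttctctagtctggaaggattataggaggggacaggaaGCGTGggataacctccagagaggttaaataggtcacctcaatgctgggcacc
Ccl22: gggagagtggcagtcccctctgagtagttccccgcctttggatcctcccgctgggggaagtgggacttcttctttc

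The Ccl17 stretch is chr8:94810283-94810452 and the Ccl22 stretch chr8:94745514-94745589, both on the plus strand. Each ends before the GENCODE start of its gene. The RefSeq start of Ccl17 is the same base, and that of Ccl22 lies 94 bases further on. In the RefSeq windows of 300 bases from which they were taken, Ccl17 held TTC and GAA with 4 bases between them, the spacing bound by STAT6, from base -154 to -145 relative to its RefSeq start, and GCGTG, the core bound by the aryl hydrocarbon receptor, from base -52 to -48. The Ccl22 window held GCGTG from base 42 to 46 of its RefSeq transcript, outside the printed stretch, and no match of the STAT6 spacing. The Ccl3 window held neither. GGG followed after 2 bases by TTTCC, an NF-kB form, and a pair of GAAA with 2 bases between them, a form bound by interferon regulatory factors, were in none of the 3 windows. On either strand, GCGTG was found in 32.4% of 32851 promoter windows of that length, the STAT6 spacing in 6.95%, the NF-kB form in 1.63% and the paired GAAA in 3.44%. A match is a description of letters, not a site, and promoters of Ccl4, Ccl5 and Ccl24 were not used here.

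Ccl17 was listed at 0.140, 0.180, 0 and 0.130 FPKM in resident libraries, which is 1, 1, 0 and 1 reads. The library with 0 reads allows up to 0.483 FPKM by a floor of 3 reads, and up to 0.594 by the exact 95% Poisson interval. Control TAM held 1.21, 2.89 and 1.30 FPKM from 8, 15 and 10 reads, and cKO-labelled TAM 9.38, 9.07 and 6.92 FPKM from 80, 80 and 91 reads. Every cKO-labelled library was above every control TAM library, and these were above every resident library. Exact Poisson intervals (95%, counting error only) ran from 0.522 to 4.75 FPKM across the control TAM libraries and from 5.56 to 11.7 across the cKO-labelled ones. Those of the resident libraries reached 0.594 to 1.00 FPKM and overlapped the intervals of control TAM.

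The mean of Ccl17 was 4.70 times higher in cKO-labelled than in control TAM (8.46 ± 1.34 against 1.80 ± 0.944, SD, n = 3 each). From the summed reads the ratio was 4.86 (exact 95% interval, counting error only, 3.37 to 7.22). The log2 change was 1.80 ± 0.169 (limma, adjusted p = 8.58e-07). From resident to control TAM Ccl17 rose by 1.28 ± 0.158 (limma, adjusted p = 1.90e-06). The ratio of summed reads was 15.02 with an interval, for counting error only, of 4.71 to 76.5, from 3 resident reads in all. Ccl17 passed the filter on low values (FPKM of at least 1 in 3 libraries) only through the TAM libraries. Its tests against resident cells thus depend on the levels that admitted it. With no filter the log2 change of 1.28 had an adjusted p of 3.03e-06 (limma). That log2 change depends on the pseudocount: it was 3.15 with 0.1 in place of 1, and 3.28 with voom on the recovered reads, a model added after seeing the data. Between the TAM groups the change was 2.27 with 0.1 and 2.29 by voom. The step between the TAM groups was thus the larger with a pseudocount of 1, and the smaller with 0.1 or voom.

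Ccl22 was measured at 0.648, 0.541, 0.448 and 0.660 FPKM in resident libraries, from 12 to 22 reads each. Control TAM held 0.771, 0.713 and 0.841 FPKM from 16 to 28 reads, and cKO-labelled TAM 1.90, 1.97 and 1.64 FPKM from 70 to 93 reads. The 3 groups did not overlap, and the step between the TAM groups was the larger one. Ccl22 passed the filter on low values (FPKM of at least 1 in 3 libraries) only through the cKO-labelled libraries, so that its test against the other groups depends on the level that admitted it. With no filter on low values it was tested as well, and the change from control to cKO-labelled TAM had an adjusted p of 9.13e-06 (limma). Its mean there was 2.37 times the control level (log2 change 0.67 ± 0.0851, limma adjusted p = 1.79e-05), and the log2 change was 1.18 by voom. From resident to control TAM the log2 change was 0.17 ± 0.0796 (95% interval 0.01 to 0.34, limma adjusted p = 0.0568), which did not pass the threshold of 0.05. It passed with a pseudocount of 0.1 (log2 change 0.39, limma adjusted p = 0.0422), and without resident replicate 1 (0.20, limma adjusted p = 0.0488) or replicate 4 (0.20, limma adjusted p = 0.0455). In 11 of 18 alternative settings it did not pass, and with quantile normalization the change was 0.04 (limma, adjusted p = 0.658). The ratio of summed reads was 1.34 (exact 95% interval, counting error only, 0.94 to 1.92), from 67 resident and 66 control TAM reads.

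The FPKM ratio of Ccl17 to Ccl22 was 0 to 0.332 in resident cells, 1.54 to 4.05 in control and 4.23 to 4.94 in cKO-labelled libraries. The more abundant of the neighbours was therefore Ccl22 in resident cells and Ccl17 in both TAM groups.

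**Figure D2:**
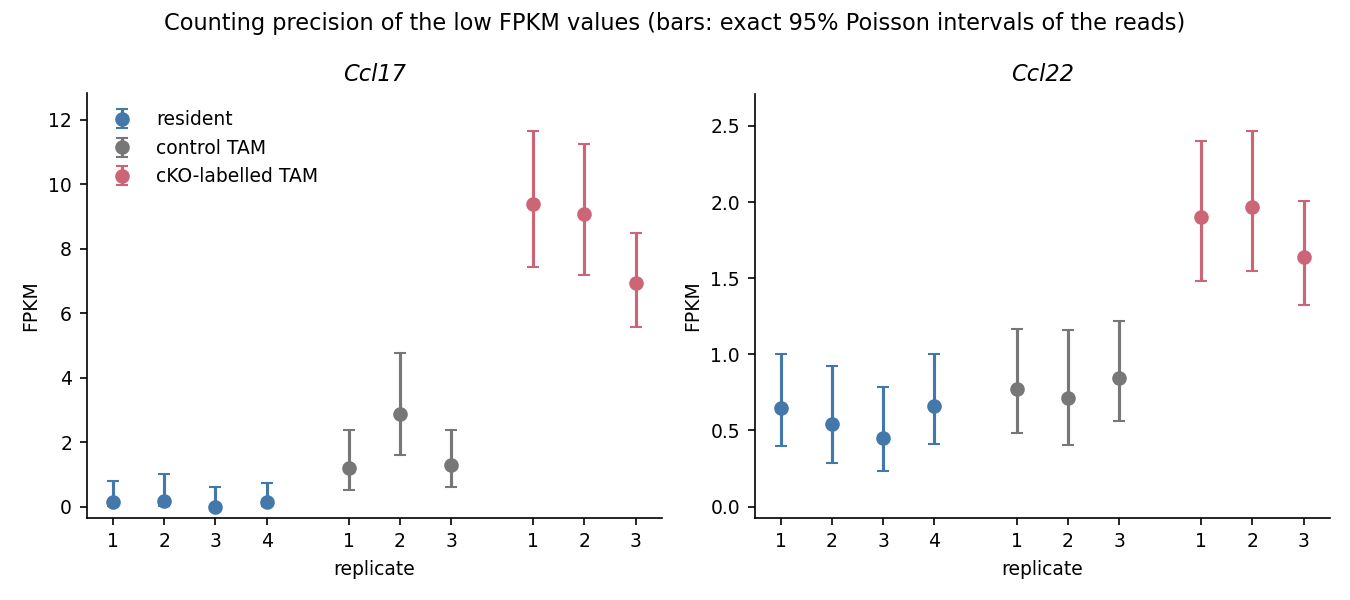
FPKM of Ccl17 and Ccl22 (vertical axes, linear) in each replicate (horizontal axis) of the 3 groups, with bars for the exact 95% Poisson interval of the recovered reads. The intervals of cKO-labelled TAM for Ccl17 start at 5.56 FPKM, above the highest control TAM limit of 4.75.

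Ccl24 was the most abundant of the 6 in every library. It stood at 173, 169, 177 and 182 FPKM in resident libraries and at 163, 163 and 171 in control TAM, with 166, 181 and 179 for the cKO-labelled group. The groups overlapped, and all 10 libraries lay between 163 and 182 FPKM, from 2144 to 5952 reads each. The log2 change was -0.08 ± 0.0375 from resident to control TAM (95% interval -0.16 to 0.00, limma adjusted p = 0.0700), but 0.13 (limma adjusted p = 0.00322) when the libraries were rescaled to a common total. Between the TAM groups it was 0.08 ± 0.0401 (95% interval -0.01 to 0.17, limma adjusted p = 0.127), and it passed the threshold without cKO-labelled replicate 1 (0.12, limma adjusted p = 0.0323). From resident to cKO-labelled TAM it was 0.00 ± 0.0375 (95% interval -0.08 to 0.08, limma adjusted p = 0.964), with a change of sign under other scalings.

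Between resident cells and control TAM, 4 of the 6 genes rose and none fell (limma, adjusted p under the threshold). All counts include Ccl22, which was tested only because it is high in the cKO-labelled libraries. They also include Ccl17, which passed the filter only through the TAM libraries. Its tests against resident cells therefore depend on the levels that admitted it. Of all 11127 genes tested, 77.1% changed in that comparison, 39.0% upwards and 38.1% downwards. Without overlap between groups were 5 of the 6, all higher in control TAM, beside 73.9% of all genes tested (37.3% higher, 36.5% lower). These 5 include Ccl17 and Ccl22, whose counting intervals for single libraries overlapped in part between the groups. From control to cKO-labelled TAM, Ccl5, Ccl17 and Ccl22 rose and Ccl3 and Ccl4 fell, 5 of 6, where 39.6% of all genes tested changed, 20.5% upwards and 19.1% downwards. With a filter of 5 FPKM, which Ccl22 failed, 4 were called there, and with no filter 5. The same 5 had no overlap there, 3 higher and 2 lower in cKO-labelled TAM, beside 51.4% of all genes (25.9% higher, 25.5% lower). From resident to cKO-labelled TAM 5 of 6 rose, where 77.4% of all genes changed, 40.2% upwards and 37.2% downwards. These 5 had no overlap, beside 75.5% of all genes (39.2% higher, 36.3% lower).

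The median log2 change of the 6 was 1.57, 0.18 and 1.72 in these 3 comparisons, where that of all genes tested was 0.00, 0.01 and 0.02. The comparisons share libraries and are not independent. Against resident cells, the cKO-labelled log2 changes were 1.66 for Ccl3, 1.78 for Ccl4, 3.21 for Ccl5, 3.08 for Ccl17 and 0.85 for Ccl22. Those of Ccl17 and Ccl22 were larger by voom, at 5.57 and 1.62.

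**Figure D3:**
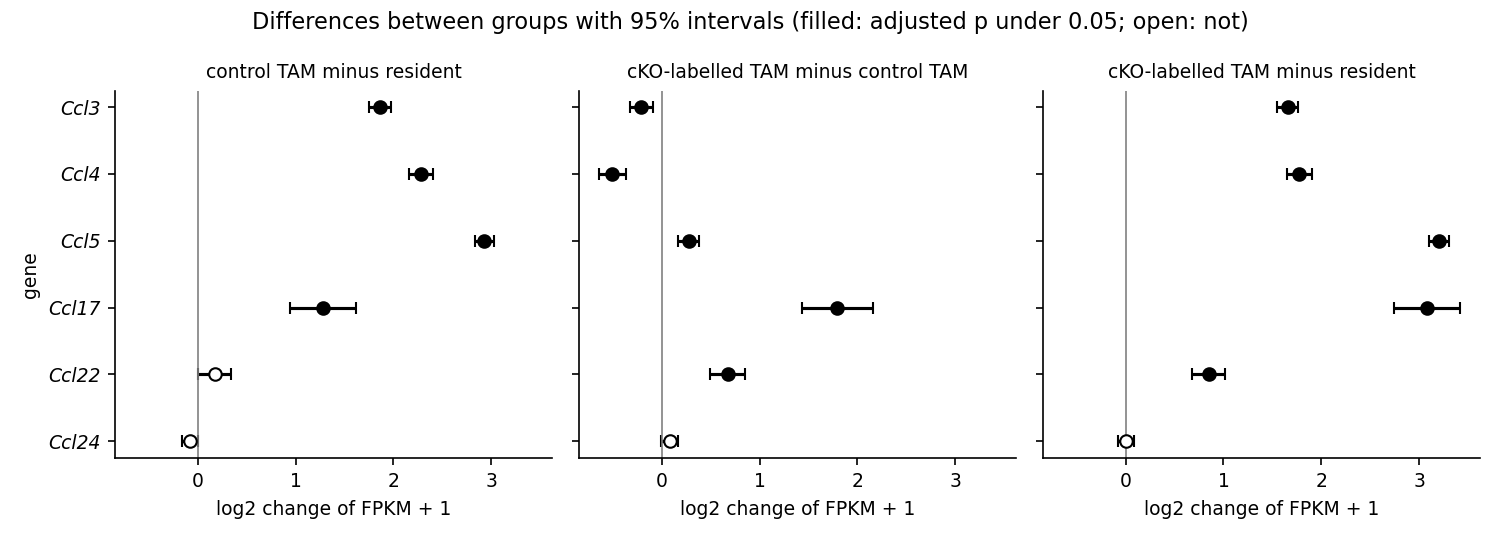
log2 change of each of the 6 genes in the 3 comparisons on the log2(FPKM + 1) scale, with bars for the 95% confidence interval from limma; filled points passed the threshold and open ones did not. In cKO-labelled against control TAM, Ccl3 and Ccl4 lie below 0, Ccl5, Ccl17 and Ccl22 above it, and the interval of Ccl24 includes 0.

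Within a group the genes kept a wide range of levels. In resident cells the order was Ccl24, Ccl4, Ccl3, Ccl5, Ccl22 and Ccl17, and the libraries of Ccl3 and Ccl4 overlapped. In control TAM it was Ccl24, Ccl4, Ccl5, Ccl3, Ccl17 and Ccl22, with Ccl5 at 1.04 to 1.08 times Ccl3 within a library. In cKO-labelled TAM Ccl5 was ahead of Ccl4, followed by Ccl3, Ccl17 and Ccl22. The ranges of Ccl4 and Ccl3 overlapped there between libraries, though Ccl4 had the higher value within each library.

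The summed FPKM of the 6 was 206 to 220 in resident cells, 348 to 362 in control and 343 to 371 in cKO-labelled libraries. Ccl24 made up 82.9% ± 0.883 (SD, n = 4) of that sum in resident cells, 46.8% ± 0.461 (SD, n = 3) in control TAM and 49.6% ± 1.66 (SD, n = 3) in cKO-labelled TAM. Ccl4 made up 7.04%, 21.5% and 15.1%, Ccl3 6.60%, 15.1% and 13.0%, and Ccl5 3.09%, 15.9% and 19.4%. Ccl17 and Ccl22 together stayed small, with Ccl17 at 0.0533%, 0.509% and 2.39% and Ccl22 at 0.272%, 0.219% and 0.519%.

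**Figure D4:**
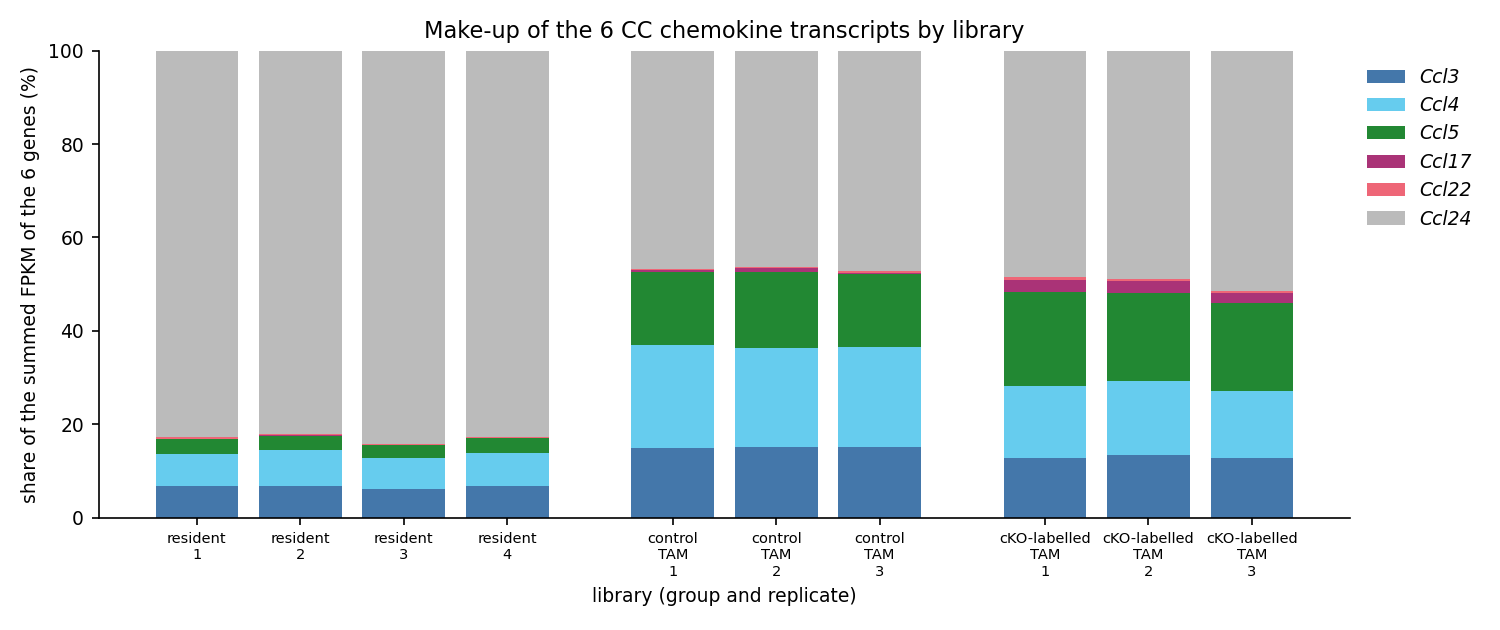
Share of each gene (percent, vertical axis) in the summed FPKM of the 6 chemokines, in each library (horizontal axis, by group and replicate); stacked bars add to the whole. On average Ccl24 takes 82.9% in resident cells and 46.8% and 49.6% in the TAM groups, where Ccl3, Ccl4 and Ccl5 fill most of the rest.

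Across the 10 libraries, log2(FPKM + 1) of Ccl3 and Ccl4 had a Pearson correlation of 0.99, and that of Ccl17 and Ccl22 was 0.95. The values with Ccl24 lay between -0.41 and 0.18. These coefficients are set mainly by the 3 group means and carry no p. Among the genes most like Ccl3 were Cystm1 and P2ry2, and those most like Ccl4 were Cct3, Ly6c1 and Cux1, each with r of at least 0.998. Ccl5 was most like Socs3, Fam101b and Car4, Ccl17 like Prmt1, Rac2 and Chmp2a, and Ccl22 like H2-DMb1, Zyx and Aif1. Ccl24 was most like Dnajc19, Fundc1 and Ywhaq, with r of 0.90 for the first. At r of at least 0.98 there were 606 genes for Ccl3, 430 for Ccl4, 547 for Ccl5, 10 for Ccl17, 7 for Ccl22 and 0 for Ccl24, of 5452 genes with a mean of at least 10 FPKM in some group. With a pseudocount of 0.1, of the 3 nearest genes 1 stayed for Ccl3, 1 for Ccl5 and 0 for Ccl17.

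Of the receptors, Ccr1, Ccr3 and Ccrl2 are described, and all 3 rose from resident to control TAM (log2 changes of 1.28, 4.09 and 1.97). In that step 39.0% of all genes tested rose. Ccr4, Ccr8, Ackr1, Ackr2 and Ackr4 were not found by name in the expression table, so they could not be analysed. Ccr3, the receptor of Ccl24 and Ccl5, averaged 0.315 FPKM in resident cells, 21.3 in control and 35.8 in cKO-labelled TAM, and rose between the TAM groups (log2 change 0.73, limma adjusted p = 2.14e-05). Ccr1 averaged 91.9, 224 and 206 FPKM, and fell by 0.12 between the TAM groups (limma, adjusted p = 0.0344). Ccrl2, an atypical receptor that binds chemerin, averaged 21.4, 86.9 and 79.4 FPKM, and its difference between the TAM groups did not pass the test (limma, adjusted p = 0.0561).

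Genes around STAT6, the factor through which IL-4 acts on Ccl17 and Ccl22, were split. Of 19, 9 rose and 8 fell from resident to control TAM (median log2 change 0.08), and 8 rose and 8 fell from control to cKO-labelled TAM (median 0.06). Over all genes tested, 77.1% changed in the first step and 39.6% in the second. Stat6 itself averaged 147, 119 and 96.7 FPKM in resident, control TAM and cKO-labelled TAM, and fell between the TAM groups (log2 change -0.29, limma adjusted p = 4.84e-06). The lectin genes Mgl2 and Clec10a rose between the TAM groups by 2.07 and 2.15 on the log2 scale, and Retnla, which encodes the secreted protein RELM-alpha, by 2.43, all 3 in the direction of Ccl17 and Ccl22. Arg1, the arginine-degrading arginase, fell by 0.73 there, after a rise of 8.43 from resident to control TAM, and Chil3, a chitinase-like gene, fell by 0.59 after a rise of 6.90. In that first step Retnla, Mgl2 and Clec10a fell, with log2 changes of -5.40, -4.43 and -2.94, opposite to Ccl17. Socs1, an inhibitor of cytokine signalling, averaged 2.22, 38.0 and 45.8 FPKM, and the lipoxygenase gene Alox15 137, 1389 and 1375.

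Genes of the NF-kB and interferon regulatory factor pathways, which are known to act on Ccl3, Ccl4 and Ccl5, rose more often than they fell. Of 20, 12 rose and 7 fell from resident to control TAM (median log2 change 0.27), and 9 rose and 5 fell between the TAM groups (median 0.05). Of all genes tested, 39.0% rose and 38.1% fell in the first of these comparisons, and 20.5% and 19.1% in the second. The cytokine gene Il1b averaged 33.2, 254 and 314 FPKM in resident, control TAM and cKO-labelled TAM. Irf7 and Irf1, which encode interferon regulatory factors, rose by 1.74 and 1.59 on the log2 scale from resident to control TAM, and Nfkbia by 1.05. The 7 that fell there were Nfkbiz (-0.84), Irf3 (-0.37), Rela (-0.26), Relb (-0.24), Ikbkb (-0.22), Nfkb2 (-0.11) and Irf5 (-0.07). Between the TAM groups Nfkbia and Tnfaip3, which encode inhibitors of NF-kB, fell by 0.30 and 0.44 on the log2 scale, while the adaptor gene Myd88 and the NF-kB subunit gene Nfkb2 rose by 0.37 and 0.35. Among proteases that can cut chemokines or shed membrane proteins, 6 of 7 were tested. All 6 rose from resident to control TAM (median 0.69), where 39.0% of all genes tested rose. Between the TAM groups, where 19.1% of all genes fell, 4 of the 6 did (median -0.28). Among them were Adam10, from 45.7 to 29.0 FPKM, and Adam17, from 55.6 to 41.3. The matrix metalloprotease genes Mmp14 and Mmp12 rose by 3.57 and 2.42 on the log2 scale from resident to control TAM, and Mmp12 fell by 0.28 between the TAM groups. Dpp4, the peptidase that trims Ccl5 and Ccl22, averaged 1.08, 2.33 and 2.43 FPKM.

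Markers of other cells known to make these chemokines, or to be attracted by them, moved as well. So did 77.1% of all genes tested from resident to control TAM, and 39.6% between the TAM groups. The dendritic cell list, a known source of Ccl17 and Ccl22, had 7 of 9 measured genes tested. In control TAM against resident cells 2 rose and 3 fell (median -0.13), and from control to cKO-labelled TAM 4 rose and 1 fell (median 0.29). Its summed FPKM ran from 234 to 242 in control TAM and 237 in all cKO-labelled libraries, and from 324 to 345 in resident cells. Most abundant were Sirpa, also expressed by macrophages, which fell by 0.40 on the log2 scale, and Cd209a, which rose by 1.26. Batf3, a transcription factor of conventional dendritic cells, rose from 15.2 to 33.6 FPKM (limma, adjusted p = 1.71e-07), and Fscn1, an actin-bundling gene of mature dendritic cells, from 1.05 to 2.03 (adjusted p = 0.00307). Zbtb46 rose by 0.29 (limma, adjusted p = 0.0327), while Flt3 averaged 0.864 and 0.770 FPKM (limma, adjusted p = 0.646). Batf3, Cd209a and Zbtb46 were highest in resident cells, at 43.0, 118 and 3.80 FPKM. They were the 3 that fell from resident to control TAM, with log2 changes of -1.45, -2.68 and -1.23, opposite to Ccl17. The 2 that rose in that step were Itgax (2.08) and Sirpa (0.23). The part of these cells in the values of Ccl17 and Ccl22 was not tested.

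T and NK cells are a known source of Ccl3, Ccl4 and Ccl5, and of their list 10 of 11 measured genes were tested. In control TAM against resident cells 7 rose and 2 fell (median 0.55), beside 39.0% and 38.1% of all genes tested. Between the TAM groups 7 rose and 1 fell (median 0.35), beside 20.5% and 19.1% of all genes. The list's summed FPKM was 31.2 to 33.3 in resident cells, 17.6 to 20.2 in control and 25.3 to 28.03 in cKO-labelled libraries. By the mean over all libraries the most abundant were Cd2, an adhesion receptor, at 21.7, 1.76 and 2.36 FPKM, and Nkg7, a cytotoxic granule gene, at 3.82, 6.31 and 9.35. Cd3e, part of the T cell receptor complex, averaged 0.270, 1.22 and 1.66 FPKM. The part of these cells in the values was not tested.

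Eosinophil markers, which include Ccr3, had 5 of 9 genes in the table. Against resident cells, 4 rose and 1 fell in control TAM (median 3.45), and between the TAM groups 4 rose (median 0.73). Prg2, the major basic protein of eosinophil granules, was listed at 0 in all 4 resident libraries and averaged 34.4 and 35.0 FPKM in control and cKO-labelled TAM. Ear2, an eosinophil-associated ribonuclease, averaged 50.7, 14.9 and 28.5 FPKM, and Siglecf 0.494, 15.3 and 27.0. The list's summed FPKM was 45.7 to 59.5 in resident cells, 88.7 to 91.7 in control and 132 to 133 in cKO-labelled libraries, beside the overlapping levels of Ccl24. Ear2 made most of the resident sum, where Siglecf, Ccr3 and Il5ra averaged 0.494, 0.315 and 0.0511 FPKM. Neutrophil genes, 11 of 12 measured, summed to 360 to 369, 1298 to 1323 and 1637 to 1799 FPKM. In control TAM 9 of them rose against resident cells and 1 fell (median 2.20), and between the TAM groups 8 rose and 1 fell (median 0.34), with Retnlg (0.332, 1166 and 1420 FPKM) and Mmp9 (329, 41.5 and 123) the most abundant. Immediate-early and heat-shock genes that tissue dissociation is known to induce summed to 1916 to 2044 FPKM in resident cells, 3081 to 3149 in control and 3119 to 3268 in cKO-labelled libraries. Of these 14, 13 rose from resident to control TAM (median 0.61), and 5 rose and 3 fell between the TAM groups (median 0.04), with Dusp1 and Junb the most abundant. Beside the counts of these lists, 39.0% of all genes tested rose and 38.1% fell from resident to control TAM. Between the TAM groups 20.5% rose and 19.1% fell. The part of none of these lists in the chemokine values was tested.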

How the data were processed

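The authors deposited 1 table of FPKM values per gene and library. Libraries were made with SMART-Seq v4 and Nextera XT, which do not mark strand, after extraction with 1 of 2 kits, per the labels' protocols. The submitters' processing notes name STAR, edgeR and the mm10 build, with no versions. Which library had which kit is not given in the sources used here. Gene identifiers were matched to GENCODE M21.

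From these values log2(FPKM + 1) was fitted with limma 3.58.1 in R 4.3.3 (3 group means over all 10 libraries, empirical Bayes with a variance trend, 7 residual degrees of freedom). Tested were the 11127 genes that reached 1 FPKM in 3 or more libraries, and p-values were adjusted by Benjamini-Hochberg over all of them, with a threshold of 0.05. The fit was tested on simulated data. Whole reads were recovered from the steps of low values: between 85.8% and 87.1% of values from 1 to 200 reads were whole within 0.05. The interval of a single value is the exact Poisson interval. That of a ratio of summed reads covers counting error only, not the spread between libraries. No pair of libraries within a group was so alike as to be 1 library deposited again, since their squared differences were 1.68 to 2.44 times the counting noise. The design text gives a number of mice equal to the number of libraries in each group, but nothing ties a library to a mouse, so that p-values measure the spread between these libraries, which may be technical.

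All 6 members are named; of the pathway lists, those past the threshold with the largest changes; of the cell type lists, those most abundant, beside a few defining markers chosen after their values were seen. The 3 genes most like each member are those with the highest Pearson correlation. A receptor and a gene most like a member are not reported here. The members and the lists were chosen with earlier results of these data known. Alternatives were other pseudocounts, filters, scalings and variance settings, a replicate block, leaving out each library, and voom on the recovered reads, the last chosen after seeing the data.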

Additional observations from a re-analysis of the deposited data

How the results depend on the processing

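Ccl3, Ccl4, Ccl5 and Ccl17 kept their direction and their side of the threshold in all 3 comparisons under the 22 alternatives, and Ccl22 did so in both comparisons with cKO-labelled TAM wherever it could be tested. Ccl22 gave no value with a filter of 5 FPKM or without any 1 cKO-labelled library, since it then failed the filter. From resident to control TAM, Ccl22 passed the threshold with a pseudocount of 0.1 (log2 change 0.39) or 0.5 (0.25) and with no filter (0.17). It also passed rescaled to a common total (0.26), without the variance trend (0.17), and without resident replicate 1 or 4 (0.20 each). In the other 11 of 18 settings it did not pass. Among these were quantile normalization (0.0402, limma adjusted p = 0.658) and voom (0.43, limma adjusted p = 0.157). With 1 library left out its change ranged from 0.14 to 0.20. For Ccl24 that comparison gave 0.13 rescaled to a common total, a reversed sign, -0.18 with quantile normalization and -0.10 with median-of-ratios scaling, all past the threshold, and -0.10 to -0.0589 with 1 library left out. It was called without resident replicate 2 (-0.10), control TAM replicate 3 (-0.10) or cKO-labelled replicate 1 (-0.08). Between the TAM groups Ccl24 ranged from 0.057 to 0.12 with 1 library left out. From resident to cKO-labelled TAM it was 0.14 rescaled, past the threshold, and reversed to -0.10 with quantile normalization and -0.0335 with median-of-ratios scaling, with a range of -0.021 to 0.0414 when 1 library was left out. Its groups changed order for 1 pair under rescaling and for 1 pair under median-of-ratios scaling. The cause was not tested.

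Rescaling to a common total moved the median log2 change of all genes to 0.18 from resident to control TAM and to -0.05 between the TAM groups, and the share of calls that were upwards from 50.6% to 65.9% and from 51.8% to 32.9%. From resident to cKO-labelled TAM these were 0.13, and 52.0% to 61.6%. No pairing by replicate number was seen: deviations of same-numbered libraries had correlations from -0.06 to 0.11, and those of other pairs from -0.15 to 0.13. So few libraries cannot show that a pairing is absent. With a replicate block Ccl17 changed by 1.80 and Ccl4 by -0.50 between the TAM groups, and the block changed no call among the 6. Depth limits the resident values of Ccl17, at 0 or 1 read per library, and those of Ccl22.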

Other observations

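Other CC chemokines of the same libraries, 8 of 14 listed being in the table, moved in more than 1 way. From resident to control TAM 4 rose and 3 fell (median log2 change 0.26), and between the TAM groups 3 rose and none fell (median 0.16). Of all genes tested, 77.1% changed in the first of these comparisons and 39.6% in the second. Ccl8, a monocyte-attracting chemokine, averaged 497 FPKM in resident cells, 191 in control and 1548 in cKO-labelled TAM, a log2 change of 3.01 between the TAM groups (limma, adjusted p = 4.30e-17). Ccl12 averaged 15.2, 88.2 and 158 FPKM and rose there by 0.83 (limma, adjusted p = 1.92e-06). Ccl2, the main attractant of Ccr2-bearing monocytes, averaged 29.6, 152 and 160 FPKM, and its difference between the TAM groups did not pass the test (limma, adjusted p = 0.198). Ccl7 averaged 33.5, 155 and 174 FPKM, with a log2 change of 0.17 between the TAM groups (limma, adjusted p = 0.0362).

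B and plasma cell genes, 5 of 8 measured, all fell from resident to control TAM (median -2.92), and 4 rose between the TAM groups (median 1.18), with summed FPKM of 897 to 916, 85.8 to 94.7 and 241 to 244. Ighm, the IgM heavy chain gene, averaged 854, 83.1 and 220 FPKM. Both platelet genes measured fell from resident to control TAM (median -0.84), and 1 rose between the TAM groups (median 0.70). All 9 acinar genes fell from resident to control TAM (median -8.61) and rose between the TAM groups (median 1.98). Of the 9 macrophage genes, 4 rose and 5 fell from resident to control TAM (median -0.26), and 1 rose and 6 fell between the TAM groups (median -0.25). Beside all these counts, 77.1% of all genes tested changed from resident to control TAM, and 39.6% between the TAM groups. None of the 6 mast cell and basophil genes listed was found by name in the expression table.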
